A study of Caenorhabditis elegans with 2 samples.

Results

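The genes described here are 10 regulators of the cell cycle that act in larval development of the nematode Caenorhabditis elegans, and the question is where the transcription factor CRH-2 was found at them. They were chosen by name and comprise 4 genes that drive entry into the cycle (cyd-1, cdk-4, cye-1 and cdk-2), 4 inhibitors (cki-1, cki-2, lin-35 and fzr-1) and the E2F and DP partners efl-1 and dpl-1. All 10 were matched by symbol among 19973 protein-coding genes of the nuclear chromosomes. The window of each gene ran from 2000 bp upstream of its start to its end.

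CRH-2, a basic leucine zipper factor of the CREB family, was mapped with ChIP-seq, in which DNA bound to an immunoprecipitated protein is sequenced, using intact L2-stage animals with the sexes pooled. Their strain, OP425, has the genotype unc-119(tm4063) III; wgIs425 and stably expresses crh-2 (C27D6.4) with a GFP-FLAG tag at its C terminus. Both libraries, labelled as 2 biological replicates, came from this 1 strain and stage, and the design holds no second condition. The files gave no read depth, and in whole larvae a region in few cells and a weak region in many cells cannot be told apart. No control library was analysed here.

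In C. elegans most blast cells pause between larval divisions and re-enter the cycle in a fixed schedule. Cyclin D (CYD-1) with CDK-4 starts G1 progression by inactivating LIN-35, the only retinoblastoma-family protein of the worm, and cyclin E (CYE-1) with CDK-2 then starts S phase. CKI-1 and CKI-2 are CDK inhibitors of the Cip/Kip family, and FZR-1 is the Cdh1-type activator of the anaphase-promoting complex, which targets cyclins for destruction. EFL-1 (E2F) and DPL-1 (DP) form a DNA-binding pair that works with LIN-35 in repression and can also activate genes of S phase, so the pair was kept apart from both classes.

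A replicated peak, one that passed the authors' irreproducible discovery rate (IDR) threshold, had its summit in the windows of 7 of the 10 regulators. All 4 drivers had one, 2 of the 4 inhibitors (lin-35 and fzr-1), and efl-1 but not dpl-1. Replicated is used here as the name of a list, not as a statement about each peak. Of its 5735 peaks, 5704 were overlapped by a region in both replicates, among them all 10 at these genes. Of all protein-coding genes, 26.3% had a replicated summit in the same kind of window. The members' windows were longer than usual, with a median of 6047 bp against 4027 bp. Among the 16423 genes with windows from 2866 to 14527 bp, the range of the members, the share was 26.5%. That range holds most genes and does not match the members' lengths, so it cannot show what window length adds. No test was made, because the genes were chosen by name with results of these data known and genes of 1 genome are not replicates.

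**Figure D1:**
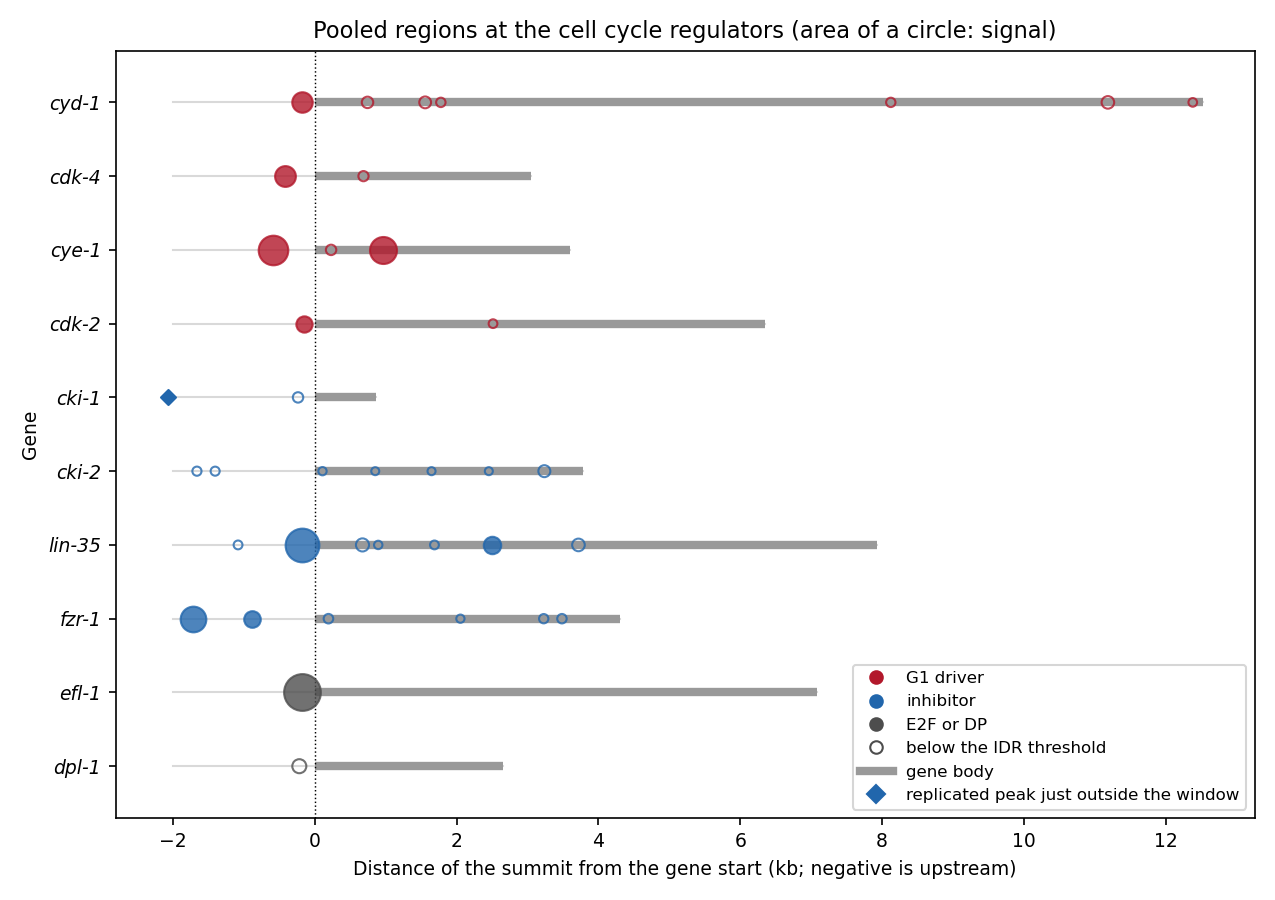
Pooled regions at the 10 genes by distance of the summit from the gene start in kb (negative is upstream), 1 row a gene, with the area of a circle proportional to the pooled signal. Filled circles are replicated peaks, open circles lie below the IDR threshold, and the diamond is a replicated peak 78 bp outside the cki-1 window. The strongest circle, at efl-1, lies 180 bp upstream of the gene start, and dpl-1 and cki-2 have open circles alone.

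The map of pooled regions shows 10 replicated peaks at the 7 genes. In 6 of the 10 the summit lay within 600 bp upstream of the gene start. cye-1, lin-35 and fzr-1 each had 2 replicated peaks in the window. The second at lin-35 was lost without replicate 1, although replicate 2 held a region there at rank 7454. Of all genes with a replicated peak, 20.5% had 2 or more. Among the 10 peaks, 8 also lay in the window of another protein-coding gene, and for 5 genes (cdk-4, cye-1, lin-35, fzr-1 and efl-1) an upstream peak lay between the gene and a divergently transcribed neighbour. A summit there does not tell which gene it belongs to. Across all replicated peaks that fell in a gene window, 33.6% were in the windows of 2 or more genes. That share counts each peak once. The members' peaks were reached through genes, which favours peaks in several windows, so the 2 shares are not on the same footing.

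Of the drivers, cyd-1 and cdk-4 had 1 replicated peak each, both of about median strength. cyd-1, the only D-type cyclin of the worm (WBGene00000870, II 12980591 to 12993117, plus strand), had its peak at II 12980228 to 12980603, 175 bp upstream of the start in intergenic sequence. Its pooled signal was 107.5, rank 2672 of 5735, against a median of 102.9 over the replicated peaks. In replicate 1 the region there had a signal of 50.8 and rank 3281, and in replicate 2 a signal of 51.6 and rank 2734. In units of each replicate's median over the replicated peaks, called relative signal below, these were 0.904 and 1.01. The other 6 pooled regions along this long gene had signals from 19.2 to 40.3, below the lowest replicated peak (62.3). cdk-4, the partner kinase (WBGene00000406, X 13515856 to 13518911, minus strand), had its peak at X 13519139 to 13519514, 416 bp upstream of its own start and 336 bp upstream of F18H3.1 on the other strand. The pooled signal was 110.9 (rank 2557), with relative signals of 1.09 in replicate 1 and 0.869 in replicate 2. The means, 0.958 ± 0.0773 (SD, n = 2) for cyd-1 and 0.982 ± 0.159 (SD, n = 2) for cdk-4, differed by less than these SDs, and the replicates put them in opposite order.

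The bases around these summits are shown because the partners' peaks were not separated by strength and differ in sequence there. Each window is 50 bp to each side of the summit, 5′ to 3′ on the plus strand of ce11, and capitals mark TGATAA on either strand. The cyd-1 window, chrII:12980366-12980466, is 28.7% GC and holds that GATA-type sequence in 2 places, while the cdk-4 window, chrX:13519277-13519377, is 49.5% GC and holds none of the sequences searched. Over all replicated peaks the median was 42.6% GC, and the 5th and 95th percentiles were 30.7% and 56.4%. TGATAA occurred in 18.7% of all peak windows and in 9.69% of windows of the same length 300 bp to either side, which were not cleared of other peaks. It was added to the search after these letters were seen, so its presence at cyd-1 is a description.
cyd-1: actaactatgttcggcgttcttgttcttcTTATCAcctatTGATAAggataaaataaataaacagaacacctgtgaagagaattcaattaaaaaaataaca
cdk-4: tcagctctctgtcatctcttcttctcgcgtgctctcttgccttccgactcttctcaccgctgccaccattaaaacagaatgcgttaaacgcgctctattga

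cye-1 had the strongest driver peak and cdk-2 the weakest. cye-1, encoding cyclin E (WBGene00000871, I 6780799 to 6784397, plus strand), had a peak 587 bp upstream of its start with a pooled signal of 224.7 (rank 685). This summit lay 61 bp from the start of pqn-21 on the other strand. A second peak, with a signal of 187 (rank 1015), lay in an intron 965 bp downstream of the start, where cye-1 has the nearest start. The upstream peak had relative signals of 2.02 and 2.12 in replicates 1 and 2, and the intronic peak of 1.71 and 1.78, so both were above the median peak in each replicate. cdk-2, the partner kinase (WBGene00019362, I 3410013 to 3416368, plus strand), had a peak 147 bp upstream of its start with a pooled signal of 67.9 and rank 5175, near the end of the replicated list. Its relative signals were 0.646 in replicate 1 and 0.545 in replicate 2, where its rank was 6706.

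Pooled signals of the drivers' strongest peaks thus ran from 67.9 at cdk-2 to 224.7 at cye-1. Within the cyclin E pair the replicate values of the genes did not overlap, while within the cyclin D pair their ranges did.

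Of the inhibitors, fzr-1 had 2 replicated peaks, neither close to its start. fzr-1 (WBGene00001510, II 9640156 to 9644466, minus strand) had the stronger at II 9646003 to 9646378, 1725 bp upstream, with a pooled signal of 169.3 (rank 1234) and relative signals of 1.67 in replicate 1 and 1.61 in replicate 2. This summit lay 787 bp from the start of sqv-8, the divergent neighbour, which is nearer than fzr-1. The weaker peak, at II 9645159 to 9645534, lay 881 bp upstream of fzr-1, nearer to it than to sqv-8, with a signal of 70.8 (rank 4885) and a relative signal of 0.685 ± 0.000465 (SD, n = 2). With a window of 1000 bp upstream, the weaker peak alone belonged to fzr-1.

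The windows of the fzr-1 peaks follow, plus strand, because they differ in what they hold. In the stronger, chrII:9646141-9646241 (51.5% GC), capitals mark GAGACGCAG, and in the weaker, chrII:9645297-9645397 (38.6% GC), they mark TGACG, the core of CREB-type sites. TGACG occurred in 21.5% of all replicated peak windows and in 10% of flanking windows.
fzr-1 stronger: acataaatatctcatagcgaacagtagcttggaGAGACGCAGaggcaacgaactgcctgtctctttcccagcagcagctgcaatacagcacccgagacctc
fzr-1 weaker: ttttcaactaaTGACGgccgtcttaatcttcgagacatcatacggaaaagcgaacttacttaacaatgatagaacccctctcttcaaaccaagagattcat

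The Cip/Kip inhibitors, cki-1 and cki-2, are neighbours on chromosome II and had no replicated summit in their windows. For cki-1 (WBGene00000516, II 7811240 to 7812105, plus strand) this rests on the window's edge. A replicated peak at II 7808974 to 7809349 had its summit 2078 bp upstream, 78 bp outside the window, and cki-1 is the nearest gene start. It was weak, with a pooled signal of 62.9 and rank 5680 of 5735, and its region had a signal of 35.3 (rank 5428) in replicate 1 and 36.1 (rank 4702) in replicate 2. Its relative signal was 0.669 ± 0.0568 (SD, n = 2), within the range of the drivers. The replicate 1 summit, 1933 bp upstream, was inside the window and that of replicate 2, 2078 bp upstream, was outside. Close to the cki-1 start the only pooled region, 237 bp upstream, had a signal of 27.7 (rank 15078), and replicate 2 had no region there.

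For cki-2 (WBGene00000517, II 7816499 to 7820281, plus strand) the 7 pooled regions in the window had signals from 16.3 to 36.6. The strongest, in an intron 3237 bp downstream of the start, had rank 10792. In replicate 1 the strongest region in the window, 3263 bp downstream, had a signal of 17.9. In replicate 2 it was a different region, 838 bp downstream, with a signal of 11.4. Their relative signals, 0.319 and 0.223, were the lowest of any member with a region in that replicate. The nearest replicated peak on either side was that upstream of cki-1, 7337 bp from the cki-2 start. The windows shown are the replicated peak outside the cki-1 window (chrII:7809112-7809212), the pooled region near the cki-1 start (chrII:7810953-7811053, 59.4% GC) and the intronic region of cki-2 (chrII:7819686-7819786), plus strand, with matches in capitals. The cki-2 region holds the full CREB palindrome TGACGTCA, found in 1.29% of replicated peak windows and 0.436% of flanking ones, although it did not pass the IDR threshold.
cki-1 distal: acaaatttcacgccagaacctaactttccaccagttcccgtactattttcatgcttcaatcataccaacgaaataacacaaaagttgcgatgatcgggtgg
cki-1 proximal: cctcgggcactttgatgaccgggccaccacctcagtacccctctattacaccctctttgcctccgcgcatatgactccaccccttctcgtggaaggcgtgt
cki-2 intron: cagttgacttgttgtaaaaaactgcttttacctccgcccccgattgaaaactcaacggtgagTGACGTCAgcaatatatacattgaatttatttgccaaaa

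lin-35 had the strongest peak of any inhibitor or driver. The gene (WBGene00003020, I 5807709 to 5815637, plus strand) had it 182 bp upstream of its start and 236 bp from the start of vps-51 on the other strand. The pooled signal was 291.7 (rank 377), with ranks of 474 in replicate 1 and 325 in replicate 2 and relative signals of 2.54 and 2.89. A second peak lay in an intron 2502 bp downstream, 209 bp from the start of C32F10.4, a gene nested on the other strand. It had a signal of 78 (rank 4304), and its relative signal was 0.868 in replicate 1 but 0.501 in replicate 2, where its rank was 7454.

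The E2F and DP partners differed. dpl-1 (WBGene00001061, II 9169910 to 9172565, plus strand) had 1 pooled region, 219 bp upstream of its start, with a signal of 50.4 and rank 7333, the member closest to the IDR threshold from below. cdk-2 was the closest from above among summits inside a window. Both replicates had the dpl-1 region, with summits 217 and 219 bp upstream, signals of 27.1 and 23.7 and ranks of 7565 and 8187. Its relative signal was 0.473 ± 0.0115 (SD, n = 2). The nearest replicated peak lay 9511 bp upstream, near rhy-1.

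efl-1, the E2F gene (WBGene00001161, V 16958590 to 16965675, minus strand), had the strongest peak of all members. It lay at V 16965763 to 16965949, 180 bp upstream of the start in intergenic sequence, with a pooled signal of 346.5, rank 241 of 5735. Replicate 1 gave a signal of 183.7 (rank 259) and replicate 2 one of 154.9 (rank 283), relative signals of 3.27 and 3.04. No other region lay in the efl-1 window in the pooled list or in either replicate. The peaks of efl-1 and lin-35 were also narrow, at 187 and 160 bp, while the other members' peaks were 376 bp wide, the median of the list. Peaks under 200 bp made up 7.31% of all replicated peaks and 47.8% of the 400 strongest.

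The efl-1 window, chrV:16965805-16965905 (51.5% GC, plus strand), is shown because it held the most of the sequences searched. The capitals mark, in order, TGACG on the minus strand, GAGACGCAG, and the E2F-type sequence TTCCCGC on the minus strand. TTCCCGC occurred in 1.71% of all replicated peak windows and 0.942% of flanking ones, and efl-1 was the only member peak with it.
efl-1: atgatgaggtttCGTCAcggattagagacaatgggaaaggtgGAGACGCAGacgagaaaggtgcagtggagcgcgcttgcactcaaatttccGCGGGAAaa

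Counted on both strands, TGACG was found in 2 of the 10 member peaks (efl-1 and the weaker fzr-1 peak), near its share of 21.5% over all peak windows. The palindrome TGACGTCA was found in 0 (1.29%), the variant TGACGTG in 0 (4.41% of all 5735 peak windows), the E-box CACGTG in 0 (7.36%), the repeat GAGAGAGA in 0 (6.43%) and the second E2F-type sequence TTCGCGC in 0 (1.81%). At least 1 of these 7 sequences, TTCCCGC and TGACG included, occurred in 35.2% of all peak windows and in 2 of the 10 at members. TGACG is part of TGACGTCA and TGACGTG. GAGACGCAG was found in 4 of the 10 (efl-1, the stronger fzr-1 peak, the upstream cye-1 peak and cdk-2), against 7.43% of all replicated peak windows and 0.392% of flanking ones. It was chosen after the fzr-1 and efl-1 sequences were seen, so those matches support nothing, and the members were not tested for it.

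Set side by side, more drivers than inhibitors had a replicated peak, 4 of 4 against 2 of 4, and the strengths of their regions overlapped. In each replicate the strongest region in a gene window was taken. The median relative signal of the drivers was 0.999 in replicate 1 (range 0.646 to 2.02) and 0.941 in replicate 2 (range 0.545 to 2.12). That of the inhibitors was 1.15 in replicate 1 (range 0.319 to 2.54) and 1.61 in replicate 2 (range 0.223 to 2.89), where cki-1 had no region in the window. Of the pairs of 1 driver and 1 inhibitor, the driver was higher in 9 of 16 in replicate 1 and in 5 of 12 in replicate 2. The 4 pairs missing from replicate 2 are those of cki-1, and with its missing region counted as lower, a choice made after the data were seen, the driver was higher in 9 of 16 in both replicates. The classes overlapped in both replicates, with lin-35 above every driver and cki-2 below every driver.

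The order of the classes turned with the setting. Over both replicates the medians were 0.97 ± 0.041 (SD, n = 2) for drivers and 1.38 ± 0.328 (SD, n = 2) for inhibitors. The inhibitors' median covered 4 genes in replicate 1 and 3 in replicate 2, without cki-1. Its SD is therefore not a spread between replicates alone. A window of 1000 bp upstream drops the distal fzr-1 peak and the strongest cki-1 region of replicate 1. The inhibitors' median was then 0.616, and the drivers' stayed at 0.97. With each summit given to the nearest gene start alone, the inhibitors' median was 0.671 and the drivers' 0.894. With cki-1 set to the lowest signal of the list in replicate 2, an alternative added after the data were seen, the inhibitors had 1.15 in replicate 1 and 0.918 in replicate 2. The count turned less: with any overlap of at least 1 bp in place of the summit, 3 of 4 inhibitors had a replicated peak, since cki-1 was gained, and with each summit inside a window given to the nearest gene start alone 3 of 4 drivers had one, since cdk-4 was lost to F18H3.1.

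**Figure D2:**
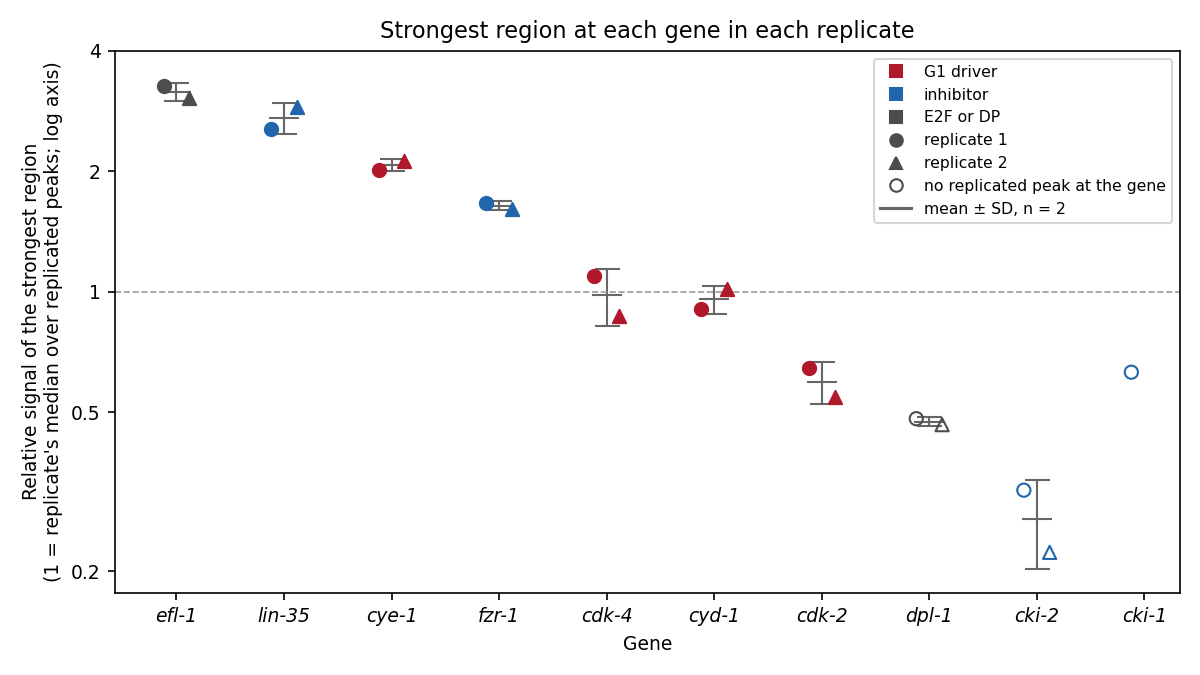
Relative signal of the strongest region in each gene's window (log axis; 1 is the replicate's median over the replicated peaks), with replicate 1 as circles, replicate 2 as triangles and bars for the mean ± SD (n = 2). Open symbols mark genes with no replicated peak in the window. efl-1 and lin-35 are highest, at 3.16 and 2.71, and cki-1 has a value in replicate 1 alone.

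Ordered by mean relative signal, the members with a region in both replicates were efl-1 at 3.16 ± 0.16, lin-35 at 2.71 ± 0.242, cye-1 at 2.07 ± 0.0701, fzr-1 at 1.64 ± 0.0398, cdk-4 and cyd-1, cdk-2 at 0.595 ± 0.0714, dpl-1, and cki-2 at 0.271 ± 0.0679 (SD, n = 2 for each). Each neighbouring pair differed by more than the larger of its SDs and kept its order in both replicates, except cdk-4 and cyd-1. With 2 replicates an SD is a rough measure, and for cki-2 the replicate values came from different regions. Over all protein-coding genes with a region in the window, the median relative signal was 0.492 in replicate 1 and 0.534 in replicate 2. In both replicates 7 members lay above these values and 2, dpl-1 and cki-2, below them. The 7 are those with a replicated peak, and the replicated peaks are the strongest pooled regions. The split therefore restates that call and is not a second result. The plot of relative signals has its dashed line at 1 and does not draw these medians.

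Without the IDR threshold nearly every regulator had some region. All 10 had a pooled region, against 58.1% of protein-coding genes. All 10 had a replicate 1 region (60.2% of genes), and 9 had a replicate 2 region (58.4% of genes), the exception being cki-1.

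Genes of 6 other lists, 76 in all, had a replicated summit in 37 cases (48.7%), against 26.3% of all protein-coding genes. The lists cover cell cycle machinery and also CDKs and cyclins outside the cell cycle core (8 of 14). The peak shared by cyb-1 and orc-5 was counted for both genes. Genes of DNA replication had 14 of 19. The strongest were pcn-1, which encodes the sliding clamp PCNA, with its summit 265 bp upstream, a pooled signal of 371.6 and 3.5 ± 0.333 (SD, n = 2) as its relative signal, the kinase gene cdc-7 at a signal of 315.8, and the licensing gene cdc-6 at 268. The summits of cdc-7 and cdc-6 lay nearer to the starts of vpr-1 and acin-1. The cdc-6 peak was not overlapped by a region in both replicates, so it has no relative signal. Other E2F genes and genes of the DREAM complex, which works with LIN-35, EFL-1 and DPL-1, had 5 of 7. The E2F genes efl-2 and efl-3 had none, so all 5 were DREAM genes. Of these lin-54, a DNA-binding subunit, had a signal of 682.8, lin-53, a histone-binding subunit, one of 456.6, and lin-9 one of 404.7. The lin-54 summit lay 27 bp from the start of the ribosomal protein gene rpl-12 and that of lin-53 226 bp from nra-2, while lin-9 had the nearest start to its own.

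Lists of mitosis lay at or below the share of all genes. Mitotic cyclins, CDK and their regulators had 3 of 14, which were the B-type cyclin gene cyb-1 (222.1), the inhibitory kinase gene wee-1.3 (208.2) and the phosphatase gene cdc-14 (160.1, pooled signals). The cyb-1 summit was the same peak as that of orc-5, whose start is nearer. The list of the anaphase-promoting complex, which FZR-1 activates, had 2 of 12, gfi-3 (199.3) and mat-1 (77). The mat-1 summit lay nearer to prp-31, at 175 bp against 452 bp, and its relative signal was 0.482 in replicate 1 and 1.02 in replicate 2. Cullin ubiquitin ligases had 5 of 10, led by the F-box genes lin-23 (217.6), skpt-1 (119.7) and sel-10 (119.1). The skpt-1 summit lay 1647 bp from its start and 230 bp from that of F48E8.8. CDKs and cyclins outside the cell cycle core had 8 of 14, led by cdk-5 (421.3), cdk-7 (341.6) and cyl-1 (140.5). With each summit given to the nearest gene start alone, when 18.5% of all genes had one, the counts were 10 of 19 for replication, 2 of 7 for E2F and DREAM, 2 of 14 for mitotic genes, 1 of 12 for the anaphase-promoting complex, 4 of 10 for cullin ligases and 7 of 14 for the other CDKs and cyclins. No list was tested against the other genes or against another list.

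**Figure D3:**
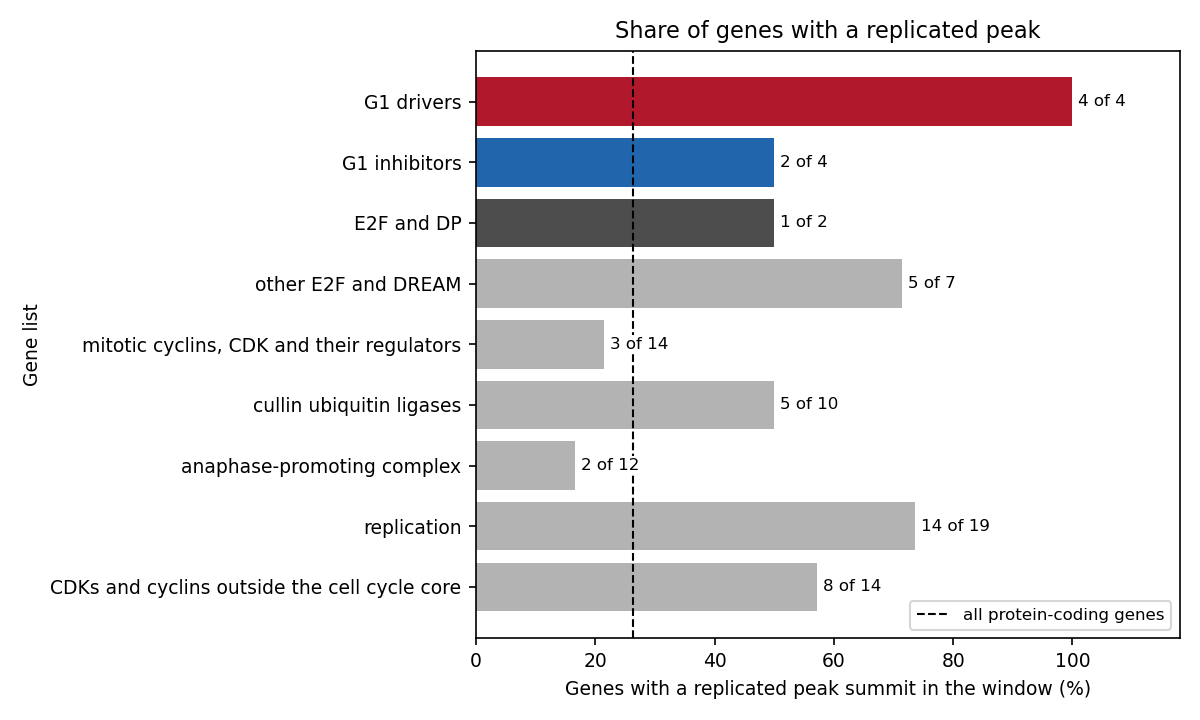
Share of genes in each list with a replicated peak summit in the window (percent, bars from 0, with counts beside them). The dashed line is the share of all protein-coding genes, 26.3%. The bars of the anaphase-promoting complex (2 of 12) and of mitotic genes (3 of 14) are the only ones that end left of it.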

How the data were processed

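Regions came from narrowPeak lists that the authors deposited for the ce11 build: replicated peaks, pooled regions and 1 list per replicate. Neither peak caller nor aligner is named here because they were not given in the sources used. The signal of a region is the authors' value, used to rank within a list. The deposited −log10 q-value was the same, 4.07, for all replicated peaks and was used for nothing else. The deposited summit offset gave each summit, and positions are 1-based. All 5735 replicated peaks were the 5735 strongest of 30000 pooled regions. Of these peaks, 5704 were overlapped by a region in both replicates. Labels call the replicates biological, with no word on separate cultures.

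Genes were taken from Ensembl release 115 on WBcel235, the sequence of ce11, and bases from the RefSeq copy of that assembly. Relative signal is a replicate's signal divided by its median over the replicated peaks (56.2 and 50.9), each peak taking its strongest overlapping region. Members and lists were chosen with earlier results of these data known. The text names all members, the neighbours with the nearest starts to their summits, and up to 3 genes with the highest signal per list. 0 columns were left out for lack of a sample. The placing rules and the motif search were checked on simulated regions. Python 3.11.15, numpy 2.4.6, pandas 2.3.3 and matplotlib 3.10.9 were used.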

Additional observations from a re-analysis of the deposited data

How the results depend on the processing

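The number of regulators with a replicated peak, 7, was 7 with 1000 bp upstream to the gene end (21.9% of all genes) or to just past the start (17.8%), 8 by overlap (27.9%, cki-1 gained), 6 by the nearest gene start (18.5%, cdk-4 lost), 6 with the 2867 strongest peaks (15.5%, cdk-2 lost) and 10 over all pooled regions (58.1%). With 1 replicate left out it ran from 6 to 8, that of drivers from 3 to 4 and that of inhibitors from 2 to 3. cdk-2 and the second lin-35 peak were lost without replicate 1 (25.8% of all genes), and cki-1 was gained without replicate 2 (25.7%). Replicate 2 did hold regions at the cdk-2 peak and the second lin-35 peak, at ranks 6706 and 7454. With the 2867 strongest peaks lin-35 and fzr-1 had 1 peak each. Over all pooled regions 4 inhibitors had a region. Of all genes, 3097 had a summit among the 2867 strongest peaks and 11596 over all pooled regions, and 5131 to 5152 with 1 replicate left out, against 5248. The drivers' median relative signal was 0.894 by the nearest start, 3.37 with each replicate's whole list as the scale and 0.941 to 0.999 with 1 replicate left out. The inhibitors' median was 0.616 with either window of 1000 bp upstream, 0.671 by the nearest start, 4.77 on the whole-list scale, 1.03 with the lowest signal for a missing region, and 1.15 to 1.61 with 1 replicate left out. Depth is unknown, so it cannot be said how weak a region these lists could hold. No paired analysis was possible because there is 1 group.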
